A study of Homo sapiens with 60 samples.

Results

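The 31 genes described here encode glycolysis, the transporters that bring glucose in and carry lactate out, and the steps that pass pyruvate to the mitochondrion. They were selected by gene name, from Ensembl identifiers mapped to symbols. The rule names no measured value, but earlier results of these data were known when the genes were chosen. All 31 were found among the 60675 genes of the expected-count table, and all 31 were among the 18396 genes that passed the filter on low counts and were tested. Gene expression was measured by RNA sequencing in 60 libraries of A549, an established human non-small cell lung carcinoma line, 24 h after the start of treatment. Cells received an ethanol extract of 1 of 4 herbs or of 1 of 4 multi-herb formulas, or vehicle. The high, medium and low doses of Polygalae Radix were 380, 76 and 15.2 µg/mL. For Aucklandiae Radix they were 370, 74 and 14.8 µg/mL, and both herbs had 2 libraries per dose. Menthae Herba and Saposhnikoviae Radix, both herbs, and Saengmaek-san and Guibi-tang, both formulas, were given at 500, 100 and 20 µg/mL with 3 libraries per dose. The formula Soyo-san had 2 libraries per dose and the formula Okbyeongpung-san 1, at these same 3 doses. The vehicle group had 3 libraries. Vehicle is 0.1% DMSO in the labels of the samples and 2% in the series text. Per the series text, extracts with an IC20 below 500 µg/mL were dosed at that IC20 and at dilutions of it, and samples without enough RNA were left out. Each extract is a mixture of many compounds.

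Glycolysis splits glucose into pyruvate in a chain of cytosolic enzymes, several of which exist as alternative isoforms encoded by separate genes. Pyruvate is then either reduced to lactate and exported, or carried into mitochondria and oxidised by pyruvate dehydrogenase, which pyruvate dehydrogenase kinases switch off. Carcinoma lines such as A549 are known for high glycolytic flux even when oxygen is present, and many of these genes are classical targets of the hypoxia-inducible factors and MYC, which bind short core motifs in promoters.

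Expected counts per library ran from 17113963 to 33363661, and the shallowest library was Polygalae Radix high dose replicate 2. Levels are given as CPM, expected counts scaled to a common, normalised library total. All sample titles name the same batch, D. The library names begin with different codes, called library sets here, and the titles do not say what the codes stand for. Vehicle has a code of its own, so a treated group and vehicle always differ in set as well. Treatment and set cannot be told apart there. High and low doses of 1 extract come from the same set. Libraries also fall into 2 classes by the level of a single unnamed gene, cut at 10 CPM, with 38 libraries in class 1 and 22 in class 2. All vehicle, Soyo-san and Okbyeongpung-san libraries are of class 2, and all Aucklandiae Radix and Menthae Herba libraries are of class 1. In the 9 groups that hold both classes, the median member differed by -0.003 on the log2 scale between class 2 and class 1, beside -0.008 over all genes. PDK2, GAPDH and PKM were higher in class 2 in 9 of 9 groups (mean log2 differences 0.31, 0.30 and 0.24), and PFKFB2, SLC16A3 and PGK1 were lower in 9 of 9 (-0.47, -0.40 and -0.30). Of 9 epithelial markers, 6 reached 1 CPM in some library. Their summed level was 8676 to 9088 CPM in vehicle and 1218 to 11470 CPM in treated libraries, led by KRT8, KRT18 and KRT7. The alveolar markers SFTPC, SFTPB and NKX2-1 stayed below 1 CPM in every library. Markers listed for other cells also varied. Fibroblast markers summed to 36.2 to 38.0 CPM in vehicle and 13.5 to 46.4 CPM in treated libraries, led by COL1A1. Muscle and neuron markers summed to 54.9 to 58.5 CPM and 23.3 to 67.3 CPM, led by SNAP25. Leukocyte markers summed to at most 6.14 CPM and endothelial markers to at most 0.368 CPM in treated libraries. CPM is relative to the library total, so a change in cell number or in total RNA per cell cannot be seen in these levels. The labels do not say whether replicates were separate cultures, so p-values reflect only how these libraries spread, which may be technical.

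The upstream sequences of 6 members are shown because they belong to isoform pairs that the results turn on or to genes that moved with a treatment: both enolases that moved in opposite directions, both lactate dehydrogenases that moved together, and HK2 and ALDOC, the members with the largest increases at a high dose. Each is the 250 bases before the RefSeq gene start in GRCh38.p14, written 5′ to 3′ on the strand of the gene. Capitals mark ACGTG, the core of hypoxia response elements and, within CACGTG, of E-boxes, and GCGTG, the other hypoxia response core, on either strand. ENO1 lies at chr1:8878687-8878936 (minus strand), ENO2 at chr12:6914330-6914579 (plus), LDHA at chr11:18394313-18394562 (plus), LDHB at chr12:21657843-21658092 (minus), HK2 at chr2:74833877-74834126 (plus) and ALDOC at chr17:28576896-28577145 (minus).
ENO1: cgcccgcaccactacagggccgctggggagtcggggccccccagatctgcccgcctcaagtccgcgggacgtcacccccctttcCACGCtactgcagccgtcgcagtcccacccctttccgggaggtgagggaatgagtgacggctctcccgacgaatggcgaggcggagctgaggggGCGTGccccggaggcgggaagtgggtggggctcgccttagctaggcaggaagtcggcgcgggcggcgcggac
ENO2: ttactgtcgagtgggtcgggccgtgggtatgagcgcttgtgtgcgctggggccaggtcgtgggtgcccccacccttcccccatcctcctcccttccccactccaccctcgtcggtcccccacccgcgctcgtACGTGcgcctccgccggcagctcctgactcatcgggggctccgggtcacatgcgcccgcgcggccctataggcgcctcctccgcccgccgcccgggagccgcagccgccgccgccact
LDHA: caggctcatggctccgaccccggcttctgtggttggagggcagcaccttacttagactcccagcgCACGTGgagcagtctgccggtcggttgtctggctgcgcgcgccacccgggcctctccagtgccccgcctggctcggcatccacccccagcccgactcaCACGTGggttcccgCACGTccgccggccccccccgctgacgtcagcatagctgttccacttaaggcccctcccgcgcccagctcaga
LDHB: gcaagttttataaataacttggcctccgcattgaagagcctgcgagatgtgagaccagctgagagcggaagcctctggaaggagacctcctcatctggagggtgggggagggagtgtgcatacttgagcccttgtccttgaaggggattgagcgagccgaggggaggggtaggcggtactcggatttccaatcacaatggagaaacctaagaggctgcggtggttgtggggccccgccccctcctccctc
HK2: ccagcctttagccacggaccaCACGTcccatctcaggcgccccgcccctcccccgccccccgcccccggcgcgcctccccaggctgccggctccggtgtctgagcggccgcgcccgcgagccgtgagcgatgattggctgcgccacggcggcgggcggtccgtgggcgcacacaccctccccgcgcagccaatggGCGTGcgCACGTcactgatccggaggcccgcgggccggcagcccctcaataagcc
ALDOC: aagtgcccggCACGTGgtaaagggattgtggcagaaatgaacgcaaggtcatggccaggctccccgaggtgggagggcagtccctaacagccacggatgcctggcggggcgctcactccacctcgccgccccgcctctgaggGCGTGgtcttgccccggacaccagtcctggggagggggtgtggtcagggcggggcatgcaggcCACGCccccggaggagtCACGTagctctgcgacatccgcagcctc

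LDHA had 5 matches to ACGTG, counting both strands of its 2 CACGTG sites, and LDHB had none of either core. ALDOC had 3 matches to ACGTG, again counting both strands of its 1 CACGTG site, and 2 to GCGTG. In the same order HK2 had 2 and 1, ENO1 had 0 and 2, and ENO2 had 1 and 0. RefSeq windows were matched for 28 of the 31 members, all but PFKFB2, SLC2A3 and SLC16A1. ACGTG occurred in 10 of the 28 (35.7%) against 18.7% of 27305 promoters of the same length, GCGTG in 11 (39.3%) against 31.9%, CACGTG in 4 (14.3%) against 6.49%, and either core in 16 (57.1%) against 43.1%. The table gives 1 start per gene, and other starts of the same gene were not searched. A match says only that these letters lie in the window.

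In vehicle, the levels per kilobase of merged exon spanned from GAPDH, at 2297 ± 67.9 CPM per kb (SD, n = 3), to HK2, at 0.182 ± 0.0392. ENO1 (446 ± 2.48), PKM (405 ± 9.93), LDHB (381 ± 6.71), TPI1 (366 ± 5.44), ALDOA (327 ± 2.88) and LDHA (296 ± 3.73) followed GAPDH, then PGAM1 (190), GPI (104), PGK1 (93.6), PFKP (84.8) and PFKFB3 (72.5). The middle of the order held SLC2A1 (38.9), PDHA1 (31.1), MPC2 (20.2), SLC16A1 (15.8), HK1 (14.1), PDHB (13.0), PFKM (7.87), SLC16A3 (7.35), ENO2 (7.14), SLC2A3 (7.01) and PFKL (6.45). PDK2 (3.76), ENO3 (3.71), PDK3 (1.90), PFKFB2 (1.84), MPC1 (1.44), PDK1 (0.743) and ALDOC (0.502) stood just above HK2. SLC16A3, ENO2 and SLC2A3 lay within an SD of a neighbour, as did PDK2 with ENO3 and PDK3 with PFKFB2, so their order is not resolved. With the longest transcript as the length, GAPDH remained first and HK2 last, but LDHA moved from 7 to 4 and PKM passed ENO1. By level per kb of merged exon, ALDOA made up 99.8% of the sum of ALDOA and ALDOC, ENO1 97.6% of the 3 enolases and PFKP 85.5% of the 3 phosphofructokinases. HK1 made up 98.7% of the sum of HK1 and HK2, but 39.5% once HKDC1 (16.4%) and ADPGK, which uses ADP in place of ATP (43.5%), were added. SLC2A1 made up 84.7% of the sum of SLC2A1 and SLC2A3. Over 8 tested genes of the SLC2A family, not all of them glucose carriers, it made up 72.3%. Among the others were SLC2A6 (6.9%), SLC2A8 (4.3%) and SLC2A13 (2.6%). Lactate dehydrogenase was shared, with LDHA at 43.7% and LDHB at 56.3% by merged exons, and 50.7% and 49.3% by the longest transcript.

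Across the high doses, the 31 genes gave 65 calls in 217 tests against vehicle at an adjusted p under 0.05, with 27 higher and 38 lower. The calls were very uneven between extracts. Most of the pathway was lower in Polygalae Radix: 27 of 31 genes passed (59.6% of all tested genes did), with 23 lower (29.5% of all genes were) and 4 higher (30.1%). The median log2 fold change of the 31 was -1.10, beside 0.05 over all genes. In the other extracts the medians were small, between -0.06 in Guibi-tang and 0.09 in Soyo-san. Aucklandiae Radix gave 11 calls (35.7% of all genes), with 8 higher (18.5%) and 3 lower (17.3%). Soyo-san gave 10 (28.6%), with 7 higher (13%) and 3 lower (15.6%), and Menthae Herba 8 (29.6%), with 5 higher (14.6%) and 3 lower (15%). These 3 shares of the members, 35.5%, 32.3% and 25.8%, were close to those of all genes. Guibi-tang gave 6 calls (9.56% of all genes), 1 higher (4.51%) and 5 lower (5.05%). Saengmaek-san gave 2 (3.79%), both higher (1.96%), and Saposhnikoviae Radix 1 (1.04%), lower (0.451%). All 7 comparisons share the same 3 vehicle libraries.

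**Figure D1:**
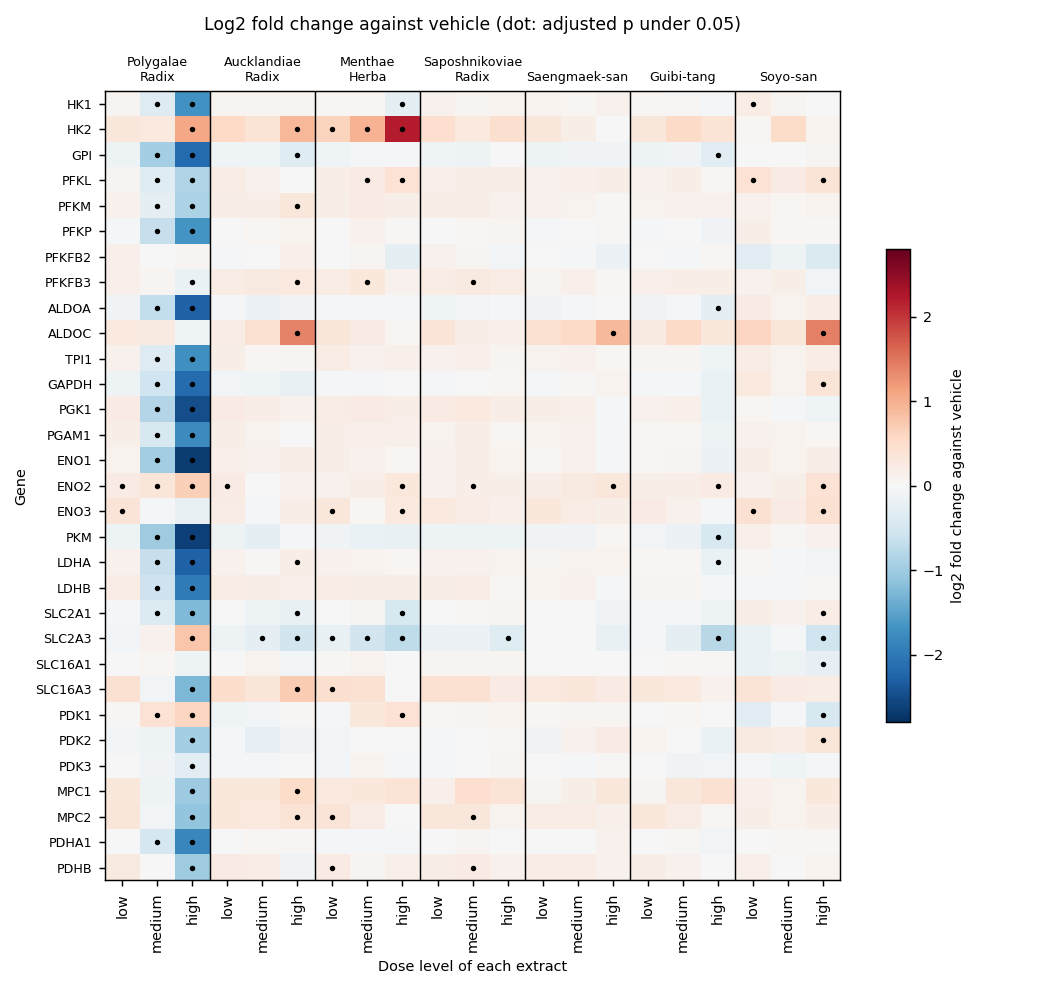
Colour gives the log2 fold change against vehicle for the 31 genes (lines) in 7 extracts at 3 doses (columns), and a dot marks an adjusted p under 0.05. The Polygalae Radix high dose column holds 27 dots, most of them in blue, more than any other column.

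In the Polygalae Radix high dose the 31 genes together held 0.646% ± 0.051 (SD, n = 2) of all expected counts, against 2.09% ± 0.018 (n = 3) in vehicle. The medium dose held 1.44% ± 0.18 and the low dose 2.15% ± 0.037. In every other group the share lay between 1.94% and 2.31%, apart from the single Okbyeongpung-san low dose library at 2.36%. The decrease in Polygalae Radix ran along the whole chain. In upper glycolysis, from hexokinase to triose phosphate isomerase, 8 of 11 genes fell, 1 rose and 2 did not pass. In lower glycolysis, from GAPDH to pyruvate kinase, 5 of 7 fell, 1 rose and 1 did not pass. Both lactate dehydrogenases fell, and of the 7 genes of pyruvate entry 6 fell and 1 rose. The summed epithelial markers moved with these genes, from 8630 and 8646 CPM at the low dose to 4839 and 5323 CPM at the medium and 1218 and 1407 CPM at the high dose, and their part in the result was not tested. The 2 high dose libraries are of different classes, so a fit of class 2 libraries holds a single treated library. The log2 differences there were -2.82 for ENO1, -2.52 for PKM, -2.845 for PGK1 and -2.275 for LDHA. They were 0.85 for HK2, 0.775 for SLC2A3, 0.62 for ENO2 and 0.48 for PDK1.

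Glucose enters through SLC2A1 (GLUT1), the ubiquitous carrier, and SLC2A3 (GLUT3), a carrier of higher affinity best known from neurons. SLC2A3 measured 42.9, 44.1 and 42.6 CPM in the vehicle libraries and 74.2 and 72.6 CPM at the Polygalae Radix high dose. SLC2A1 measured 184, 187 and 181 CPM in vehicle and 78.0 and 76.6 CPM at that dose. The groups did not overlap for either gene, and the 2 carriers moved in opposite directions: SLC2A3 rose by 0.78 ± 0.08 on the log2 scale (SE, adjusted p = 8.42e-12) and SLC2A1 fell by 1.23 ± 0.07 (adjusted p = 3.17e-18). By level per kb of merged exon, SLC2A3 made up 15.3% ± 0.072 (SD) of the pair in vehicle and 42.1% ± 0.080 at the high dose. SLC2A14, a near-identical copy that could share reads with SLC2A3, reached at most 1.25% of their sum in any library.

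SLC2A3 was lower than vehicle, not higher, in 5 other extracts. It measured 30.8 and 30.1 CPM at the Aucklandiae Radix high dose, 30.4, 26.0 and 22.8 in Menthae Herba, and 31.2, 36.1 and 34.8 in Saposhnikoviae Radix. In Guibi-tang it measured 26.3, 24.8 and 25.1 CPM and in Soyo-san 28.5 and 30.4. Every one of these libraries lay below the 3 vehicle libraries. The log2 fold changes were -0.77 ± 0.07 (SE) in Guibi-tang (adjusted p = 3.81e-10), -0.71 ± 0.07 in Menthae Herba (1.46e-10), -0.55 ± 0.08 in Soyo-san (3.79e-06), -0.51 ± 0.08 in Aucklandiae Radix (2.6e-06) and -0.35 ± 0.07 in Saposhnikoviae Radix (0.0058). In Saengmaek-san SLC2A3 measured 35.3, 38.6 and 38.0 CPM, also below vehicle, and the difference of -0.21 ± 0.07 did not pass (adjusted p = 0.0852). Within extracts, without the vehicle libraries, SLC2A3 was lower at the high than at the low dose in Guibi-tang (-0.72 ± 0.07), Menthae Herba (-0.50 ± 0.07), Soyo-san (-0.36 ± 0.09) and Aucklandiae Radix (-0.36 ± 0.09), and higher in Polygalae Radix (0.86 ± 0.08). In Soyo-san this call was lost without any 1 of its 4 libraries (adjusted p = 0.0628 to 0.339), and in Aucklandiae Radix without low dose replicate 2 (-0.30, adjusted p = 0.055). The Saposhnikoviae Radix call was lost without high dose replicate 1 (-0.29, adjusted p = 0.1). Among class 2 libraries, which include a single Saposhnikoviae Radix high dose library, the difference was -0.26. SLC2A1 fell in Menthae Herba, with 143, 133 and 130 CPM (-0.45 ± 0.06, adjusted p = 3.98e-07), and in Aucklandiae Radix, with 163 and 156 CPM (-0.21 ± 0.07, adjusted p = 0.0161). It rose in Soyo-san, with 211 and 214 CPM (0.21 ± 0.07, adjusted p = 0.0202). That call was lost without vehicle replicate 3 (adjusted p = 0.0548), without the filter on low counts (0.179) and within class 2 (0.163). Without high dose replicate 1 or 2 a single treated library was left, and the difference was 0.22 or 0.196. At the Soyo-san low dose SLC2A1 measured 214 and 201 CPM, and high against low dose did not pass. The Aucklandiae Radix call for SLC2A1 did not hold without the filter on low counts (-0.21, adjusted p = 0.117), with library class as a covariate (-0.16, adjusted p = 0.0758) or without high dose replicate 3 (-0.18, adjusted p = 0.159).

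Hexokinases trap glucose in the cell by phosphorylation. HK1 is the housekeeping form and HK2 the inducible form that many tumours express. HK1 measured 88.8, 88.7 and 88.7 CPM in vehicle and 25.2 and 28.7 CPM at the Polygalae Radix high dose. HK2 measured 1.15, 0.848 and 1.32 CPM in vehicle and 2.00 and 2.57 CPM at that dose. The 2 hexokinases moved apart without overlap: HK1 fell by 1.70 ± 0.07 and HK2 rose by 1.08 ± 0.22 on the log2 scale (adjusted p = 1.92e-23 and 4.99e-05). HK2 made up 8.04% ± 0.65 of the summed level per kb of HK1 and HK2, against 1.28% ± 0.27 in vehicle. With HKDC1 and ADPGK in the sum its share was 1.56% ± 0.065, against 0.51% ± 0.11. HK2 was highest in Menthae Herba, at 4.55, 5.89 and 4.87 CPM, a 4.62-fold difference (log2 2.21 ± 0.19, adjusted p = 2.57e-12). The medium dose measured 2.37, 2.32 and 1.88 CPM (0.98 ± 0.20, adjusted p = 0.00286) and the low dose 1.82, 1.83 and 1.43 CPM (0.61 ± 0.20, adjusted p = 0.0402). Reads of the pseudogene HK2P1 reached at most 1.96% of the sum with HK2 in any library. All 9 Menthae Herba libraries lay above vehicle, and the high dose also lay above the low dose, by 1.59 ± 0.18 (adjusted p = 4.64e-09). HK1 was lower there, at 73.1, 74.4 and 75.4 CPM (-0.26 ± 0.06, adjusted p = 0.000723). HK2 also rose in Aucklandiae Radix, to 2.13 and 2.11 CPM (0.94 ± 0.22, adjusted p = 0.000715), without a call for HK1, and the difference from its own low dose did not pass (0.38 ± 0.23, adjusted p = 0.3).

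Between hexokinase and aldolase, GPI isomerises glucose 6-phosphate, and phosphofructokinase, as the liver (PFKL), muscle (PFKM) and platelet (PFKP) forms, sets the pace of the chain. GPI measured 1102, 1111 and 1123 CPM in vehicle and 250 and 233 CPM at the Polygalae Radix high dose (-2.19 ± 0.07, adjusted p = 5.85e-27). PFKP measured 405, 417 and 407 CPM in vehicle and 128 and 124 CPM there (-1.68 ± 0.06). PFKL went from 56.8, 57.1 and 58.8 to 31.5 and 31.9 CPM (-0.84 ± 0.07) and PFKM from 56.2, 59.2 and 57.2 to 28.2 and 32.8 CPM (-0.90 ± 0.09). All 3 forms fell without overlap, PFKP the most, and the log2 ratio of PFKP to PFKL went from 2.83 ± 0.039 (SD) to 1.99 ± 0.050. PFKL alone of the 3 rose in Menthae Herba, to 75.7, 81.4 and 72.8 CPM (0.41 ± 0.06, adjusted p = 1.97e-06), and in Soyo-san, to 70.7 and 78.3 CPM (0.38 ± 0.07, adjusted p = 9.61e-05). At the Soyo-san low dose PFKL measured 80.2 and 72.4 CPM, and high against low dose did not pass. PFKM alone rose in Aucklandiae Radix, to 75.1 and 69.3 CPM (0.32 ± 0.09, adjusted p = 0.00364), with 0.16 under class as a covariate (adjusted p = 0.0849) and 0.27 without high dose replicate 2 (adjusted p = 0.0847). GPI fell in Aucklandiae Radix, at 887 and 880 CPM (-0.33 ± 0.07, adjusted p = 9.39e-05), and in Guibi-tang, at 904, 868 and 955 CPM (-0.29 ± 0.06, adjusted p = 0.000611). Among class 2 libraries, which include a single Guibi-tang high dose library, the Guibi-tang difference was -0.25. The bifunctional enzymes PFKFB2 and PFKFB3 make the fructose 2,6-bisphosphate that activates phosphofructokinase. PFKFB3 was at 440, 446 and 443 CPM in vehicle and 345 and 425 CPM at the Polygalae Radix high dose, where it passed narrowly (-0.19 ± 0.08, adjusted p = 0.0497). Without high dose replicate 2 its value was -0.06 (adjusted p = 0.654), without vehicle replicate 1, 2 or 3 the adjusted p was 0.0697, 0.0876 or 0.0854, and with the 2 groups alone it was 0.147. PFKFB3 rose in Aucklandiae Radix, at 535 and 539 CPM (0.28 ± 0.08, adjusted p = 0.00703), but with class as a covariate the value was 0.09 (adjusted p = 0.202) and without high dose replicate 3 the adjusted p was 0.0571. PFKFB2, at 18.7 ± 1.45 CPM (SD) in vehicle, passed in no comparison with vehicle.

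Aldolase cleaves the phosphorylated sugar into 2 triose phosphates, and ALDOA is its general form while ALDOC is best known from brain. ALDOA measured 1274, 1293 and 1273 CPM in vehicle and 276 and 251 CPM at the Polygalae Radix high dose (-2.26 ± 0.10, adjusted p = 9.82e-23). ALDOC stayed at 1.297 and 1.381 CPM there, against 1.39, 1.55 and 1.47 in vehicle, and did not pass (-0.11 ± 0.24, adjusted p = 0.708). ALDOC was instead higher in 3 extracts that left ALDOA without a call. It measured 3.91 and 3.89 CPM in Soyo-san (log2 1.41 ± 0.22, adjusted p = 7.61e-06) and 4.26 and 3.44 CPM in Aucklandiae Radix (1.38 ± 0.21, adjusted p = 1.79e-06). In Saengmaek-san it measured 1.95, 2.97 and 3.39 CPM (0.92 ± 0.20, adjusted p = 0.00658). Each of these libraries lay above all vehicle libraries, although ALDOC still supplied under 1% of the summed level per kb of ALDOA and ALDOC. In Aucklandiae Radix ALDOC was also higher at the high than at the low dose (1.17 ± 0.23, adjusted p = 0.000217), whereas in Soyo-san and Saengmaek-san that difference did not pass (0.81 ± 0.24, adjusted p = 0.0929, and 0.48 ± 0.19, adjusted p = 0.551). The Saengmaek-san call was lost without high dose replicate 3 (0.76, adjusted p = 0.0639), in a fit of its libraries with vehicle alone (0.91, adjusted p = 0.297) and within class 2 (0.85, adjusted p = 0.0753). ALDOA itself fell in Guibi-tang, at 1044, 995 and 1208 CPM (-0.25 ± 0.08, adjusted p = 0.0455). That call was lost with library class as a covariate (-0.14, adjusted p = 0.123) and without the filter on low counts (-0.25, adjusted p = 0.0684). It was also lost without any 1 vehicle library (adjusted p = 0.102 to 0.112) and without Guibi-tang high dose replicate 1 (0.158) or replicate 2 (0.216). Within class 2, with a single Guibi-tang high dose library, the ALDOA difference was -0.11. TPI1, which interconverts the triose phosphates, fell in Polygalae Radix from 978, 1004 and 979 to 274 and 319 CPM (-1.72 ± 0.11, adjusted p = 6.35e-18) and passed in no other extract.

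**Figure D2:**
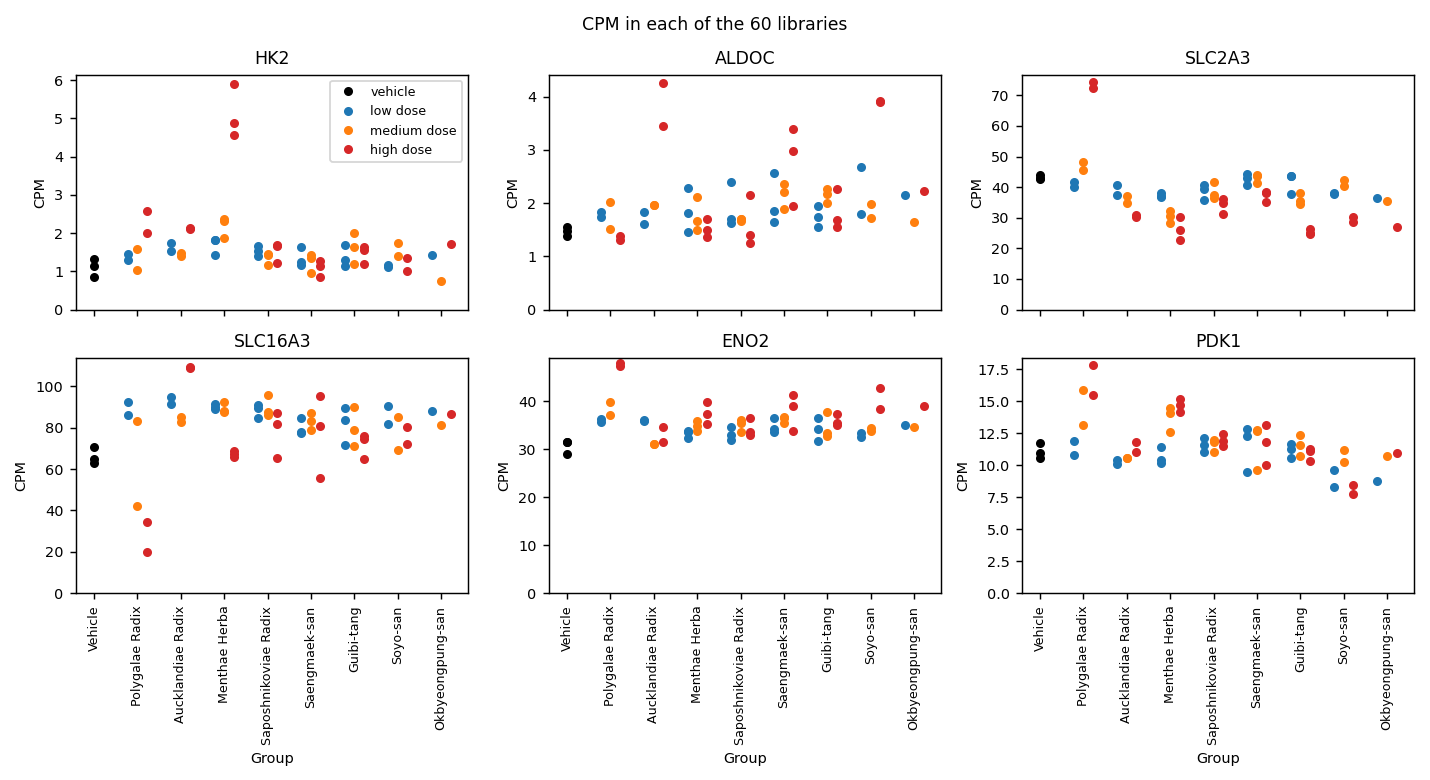
CPM of HK2, ALDOC, SLC2A3, SLC16A3, ENO2 and PDK1 in each of the 60 libraries, by extract, with vehicle in black and low, medium and high doses in blue, orange and red. HK2 is highest in Menthae Herba (4.55 to 5.89 CPM at the high dose), and SLC2A3 stands above vehicle at the Polygalae Radix high dose and below it at the high dose of the other extracts.

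Lower glycolysis yields ATP and pyruvate and held the largest decreases in Polygalae Radix. ENO1, the general enolase, measured 2340, 2365 and 2345 CPM in vehicle and 336 and 404 CPM at the high dose, 6.28-fold lower (-2.65 ± 0.12, adjusted p = 3.2e-22). PKM, which encodes the pyruvate kinases M1 and M2, measured 3394, 3563 and 3458 CPM in vehicle and 610 and 507 CPM, 6.14-fold lower (-2.62 ± 0.11, adjusted p = 2.16e-23). PGK1, the first ATP-forming step, went from 510, 511 and 526 to 72.1 and 110 CPM (-2.48 ± 0.15, adjusted p = 7.36e-18). In all 3 genes both treated libraries were several times below the lowest vehicle library. GAPDH, often used as a reference gene, went from 6641, 7046 and 6855 to 1660 and 1379 CPM (-2.16 ± 0.13, adjusted p = 4.9e-18). PGAM1, the mutase between PGK1 and enolase, went from 488, 486 and 490 to 117 and 165 CPM (-1.77 ± 0.13, adjusted p = 8.19e-16). Both fell without overlap. Pseudogenes of GAPDH and PGAM1 could take reads from their parents: the copies that the annotation names made up 0.0435% and 0.288% of the summed counts in vehicle and 0.18% and 1.03% at the Polygalae Radix high dose.

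ENO2, the neuronal enolase, rose where ENO1 fell. It measured 31.4, 28.9 and 31.4 CPM in vehicle and 47.3 and 48.0 CPM at the Polygalae Radix high dose (0.66 ± 0.07, adjusted p = 8.35e-11). ENO3, the muscle enolase, measured 16.9, 14.6 and 16.3 CPM in vehicle and 15.1 and 12.2 CPM (-0.21 ± 0.10, adjusted p = 0.0708). The log2 ratio of ENO2 to ENO1 went from -6.26 ± 0.077 (SD) to -2.95 ± 0.17, a 9.94-fold shift, and ENO2 from 1.57% ± 0.080 to 13.2% ± 1.2 of the summed level per kb of the 3 enolases. That ratio also lay above every vehicle library at the medium dose (-4.93 ± 0.34) and the low dose (-6.12 ± 0.013). Both Aucklandiae Radix low dose libraries, of the same set, lay above vehicle as well, at -6.198 and -6.154. The Menthae Herba low dose libraries did not (-6.319, -6.244 and -6.339). Small increases of ENO2 passed in 4 more extracts: Soyo-san, at 38.3 and 42.7 CPM (0.41 ± 0.07, adjusted p = 3.45e-05), Saengmaek-san, at 33.9, 38.9 and 41.2 CPM (0.32 ± 0.06, adjusted p = 0.00317), Menthae Herba, at 35.2, 37.4 and 39.9 CPM (0.29 ± 0.06, adjusted p = 0.000419), and Guibi-tang, at 34.9, 37.2 and 35.5 CPM (0.23 ± 0.06, adjusted p = 0.0157). ENO2 was thus the member with the most higher calls, 5 of 7 extracts, against 1 vehicle group that they share. High against low dose, it passed in 2 of 7, Polygalae Radix and Soyo-san. At the low dose ENO2 measured 32.3, 33.9 and 33.6 CPM in Menthae Herba and 33.6, 36.5 and 34.1 in Saengmaek-san. In Guibi-tang the low dose measured 36.6, 34.3 and 31.6 CPM. Each of these low dose libraries lay above every vehicle library. In Saengmaek-san the ENO2 call did not hold in a fit of the 2 groups alone (0.31, adjusted p = 0.303) or within class 2 (0.28, adjusted p = 0.0891). In Guibi-tang it was lost without vehicle replicate 2 (0.19, adjusted p = 0.107), without high dose replicate 2 (0.20, adjusted p = 0.0836) and without the filter on low counts (0.23, adjusted p = 0.135). Within class 2, with a single Guibi-tang high dose library, the ENO2 difference was 0.19. ENO3 rose in Menthae Herba, at 19.3, 20.1 and 18.4 CPM (0.27 ± 0.09, adjusted p = 0.0164), which did not hold without vehicle replicate 2 (0.21, adjusted p = 0.115) or high dose replicate 2 (0.25, adjusted p = 0.0689). It also rose in Soyo-san, at 19.7 and 22.8 CPM (0.42 ± 0.10, adjusted p = 0.00141). The Soyo-san call for ENO3 was lost without high dose replicate 2 (0.31, adjusted p = 0.0899). GAPDH rose in Soyo-san, at 8707 and 8825 CPM (0.36 ± 0.12, adjusted p = 0.0198), a call lost without high dose replicate 1 or 2 (adjusted p = 0.0784 or 0.121) or vehicle replicate 1 (0.0607). At the Soyo-san low dose ENO3 measured 21.7 and 20.9 CPM and GAPDH 8486 and 8012 CPM. Neither gene passed there high against low dose. PKM fell in Guibi-tang, at 2481, 2411 and 2931 CPM (-0.42 ± 0.09, adjusted p = 0.0013), with -0.26 under class as a covariate (adjusted p = 2.48e-05). Within class 2, with a single Guibi-tang high dose library, the PKM difference was -0.27. PGK1, PGAM1 and ENO1 passed at the high dose only in Polygalae Radix.

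Lactate dehydrogenase converts pyruvate to lactate, and LDHA encodes the M subunit and LDHB the H subunit of the tetramer. LDHA measured 1860, 1837 and 1813 CPM in vehicle and 381 and 374 CPM at the Polygalae Radix high dose, 4.81-fold lower (-2.26 ± 0.06, adjusted p = 2.09e-29). LDHB measured 1114, 1146 and 1150 CPM in vehicle and 225 and 354 CPM (-1.96 ± 0.16, adjusted p = 2.34e-14). Both subunits fell together, and their log2 ratio, 0.69 ± 0.043 (SD) in vehicle and 0.42 ± 0.48 at the high dose, overlapped vehicle. The treated libraries differed in that ratio, at 0.760 in replicate 2 and 0.080 in replicate 3. LDHA was slightly higher in Aucklandiae Radix, at 2100 and 2071 CPM (0.18 ± 0.06, adjusted p = 0.00963), but not without high dose replicate 2 (adjusted p = 0.0741) or the filter on low counts (0.233). It was lower in Guibi-tang, at 1602, 1556 and 1659 CPM (-0.20 ± 0.05, adjusted p = 0.00796), where it was also lower than at the low dose (-0.26 ± 0.05, adjusted p = 0.000694). Against vehicle the Guibi-tang call was lost without high dose replicate 2 (adjusted p = 0.0538) and without the filter on low counts (0.232). Against the low dose it was lost without that filter (0.11) and with the 2 groups alone (0.0976). Class 2 holds a single Guibi-tang library per dose, and there the LDHA differences were -0.175 against vehicle and -0.253 against the low dose. LDHB passed at the high dose of no other extract, although Saengmaek-san high dose replicate 1, at 838 CPM, lay well below replicates 2 and 3, at 1192 and 1289 CPM.

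SLC16A1 (MCT1) and SLC16A3 (MCT4) carry lactate with a proton across the plasma membrane, MCT4 mainly outward from glycolytic cells. SLC16A3 measured 62.9, 64.8 and 70.7 CPM in vehicle and 19.7 and 34.6 CPM at the Polygalae Radix high dose (-1.25 ± 0.18, adjusted p = 1.58e-07). SLC16A1 measured 80.3, 86.5 and 84.2 CPM in vehicle and 69.5 and 80.8 CPM, which did not pass (-0.14 ± 0.08, adjusted p = 0.157). Of the 2 lactate carriers, 1 passed, and their log2 ratio went from -0.34 ± 0.082 (SD) to -1.52 ± 0.42. SLC16A3 rose in Aucklandiae Radix, to 108.7 and 109.2 CPM (0.72 ± 0.17, adjusted p = 0.000825). With library class as a covariate that value was 0.37 (adjusted p = 0.0226), and SLC16A3 differed between classes within groups by -0.40 on average. The low dose of Aucklandiae Radix, at 94.9 and 91.4 CPM, was also above vehicle, and high and low dose did not differ past the threshold (0.23 ± 0.19, adjusted p = 0.464). SLC16A1 measured 74.9 and 71.4 CPM at the Soyo-san low dose, and high against low dose did not pass. Against vehicle it fell at the Soyo-san high dose, at 72.1 and 69.3 CPM (-0.24 ± 0.08, adjusted p = 0.029). That call was lost without either high dose replicate 1 or 2 (-0.27, adjusted p = 0.0789, and -0.22, adjusted p = 0.187) and without vehicle replicate 2 or 3 (-0.22, adjusted p = 0.0824, and -0.23, adjusted p = 0.0639).

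Pyruvate enters mitochondria through the carrier formed by MPC1 and MPC2 and is oxidised by pyruvate dehydrogenase, whose E1 component is built from PDHA1 and PDHB. PDHA1 went from 137, 141 and 141 CPM in vehicle to 41.5 and 36.9 CPM at the Polygalae Radix high dose (-1.82 ± 0.08, adjusted p = 2.83e-23) and PDHB from 60.2, 63.4 and 60.6 to 25.8 and 34.5 CPM (-1.003 ± 0.089, adjusted p = 5.85e-13). MPC2 went from 51.8, 52.6 and 49.9 to 19.8 and 27.5 CPM (-1.10 ± 0.12) and MPC1 from 2.45, 2.26 and 1.96 to 1.10 and 1.09 CPM (-1.01 ± 0.23). The genes of pyruvate oxidation therefore fell in the same libraries as those of lactate formation. Pyruvate dehydrogenase kinases phosphorylate and inactivate the complex, and PDK1 is known to be inducible by hypoxia. PDK1 rose from 10.5, 10.9 and 11.7 to 15.5 and 17.9 CPM (0.61 ± 0.11, adjusted p = 4.62e-06). PDK2 fell from 19.6, 22.1 and 20.1 to 12.9 and 8.35 CPM (-0.96 ± 0.14, adjusted p = 1.65e-07) and PDK3 from 9.70, 9.25 and 9.22 to 6.79 and 8.19 CPM (-0.30 ± 0.10, adjusted p = 0.00676). The PDK3 call was lost without high dose replicate 2 (-0.19, adjusted p = 0.162) and with the 2 groups alone (-0.32, adjusted p = 0.0657). PDK1 was the only kinase of the 3 to rise there, and the log2 ratio of PDK1 to PDK2 went from -0.89 ± 0.12 (SD) to 0.68 ± 0.58. PDK1 also rose in Menthae Herba, at 14.2, 15.2 and 14.7 CPM (0.41 ± 0.10, adjusted p = 0.0013), where class as a covariate gave 0.22 (adjusted p = 0.0534) and the difference from the low dose was 0.46 ± 0.10 (adjusted p = 0.000581). In Soyo-san PDK1 fell, at 8.44 and 7.78 CPM (-0.44 ± 0.12, adjusted p = 0.00362), and PDK2 rose, at 25.5 and 26.6 CPM (0.34 ± 0.13, adjusted p = 0.0449). Without Soyo-san high dose replicate 2 the PDK1 difference was -0.39 (adjusted p = 0.0715), and the PDK2 call was lost without high dose replicate 1 or 2 (adjusted p = 0.116 or 0.225) or vehicle replicate 1 or 3 (0.125 or 0.0996). At the Soyo-san low dose PDK1 measured 8.27 and 9.62 CPM and PDK2 25.8 and 23.6 CPM. Neither kinase passed there high against low dose. MPC1 and MPC2 were higher in Aucklandiae Radix, at 3.45 and 2.92 CPM and at 68.8 and 66.3 CPM (0.51 ± 0.19, adjusted p = 0.0353, and 0.39 ± 0.11, adjusted p = 0.00472). The MPC1 call was lost without either high dose replicate (adjusted p = 0.261 and 0.0524), without vehicle replicate 2 or 3 (0.0644 and 0.125), without the filter on low counts (0.0878) and in DESeq2 (0.0539), and that of MPC2 without high dose replicate 2 (0.0542) and with class as a covariate (0.0638).

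**Figure D3:**
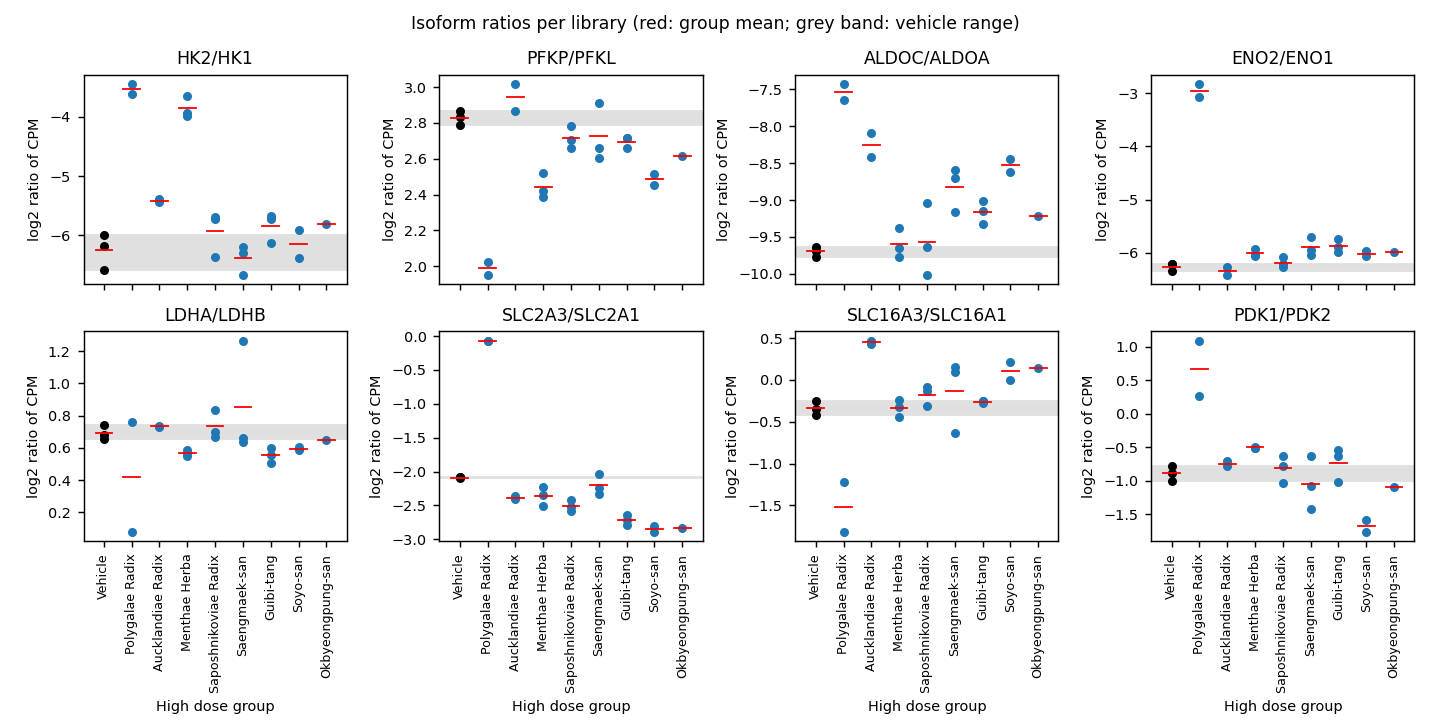
Log2 ratio of CPM of 8 pairs of isoforms or carriers in each vehicle and high dose library (points), with the group mean as a red line and the vehicle range as a grey band. The ENO2 to ENO1, HK2 to HK1 and SLC2A3 to SLC2A1 ratios of Polygalae Radix stand far above the band, and the HK2 to HK1 ratio of Menthae Herba does so as well.

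The mean level followed the dose of Polygalae Radix, from vehicle through the low and medium to the high dose, downward in 9 of the 31 genes and upward in 2, ENO2 and PDK1, and in no such order in 20. At the medium dose 18 of 31 genes passed (18.3% of all genes did), 16 lower (9.65%) and 2 higher (8.7%), with a median of -0.28 beside 0.03 over all genes. PKM was at 1842 and 1644 CPM (-0.99 ± 0.10, adjusted p = 5.17e-10), ENO1 at 955 and 1435 CPM (-0.98 ± 0.11, adjusted p = 6.24e-09) and GPI at 541 and 608 CPM (-0.95 ± 0.07, adjusted p = 2.22e-14). For these 3 genes the medium dose lay between vehicle and the high dose without overlap, although the mean of ENO1 at the low dose lay above that of vehicle. ENO2 (0.33 ± 0.07) and PDK1 (0.40 ± 0.11) were the 2 that rose. At the low dose 2 genes passed (6.39% of all genes), ENO2 (0.23 ± 0.07, adjusted p = 0.0401) and ENO3 (0.35 ± 0.10, adjusted p = 0.0255), both higher (3.54% of all genes). Between the high and the low dose, which share a library set, 28 genes passed (57% of all genes), 24 lower (29.1%) and 4 higher (27.9%), and the median was -1.33 beside 0.04. The 4 that were higher were again HK2 (0.76 ± 0.24, lost without high dose replicate 3, adjusted p = 0.134, or low dose replicate 3, 0.0662), SLC2A3 (0.86 ± 0.08), PDK1 (0.58 ± 0.12) and ENO2 (0.43 ± 0.08). ENO1 (-2.74 ± 0.13), PGK1 (-2.72 ± 0.16) and PKM (-2.49 ± 0.11) were lowest.

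**Figure D4:**
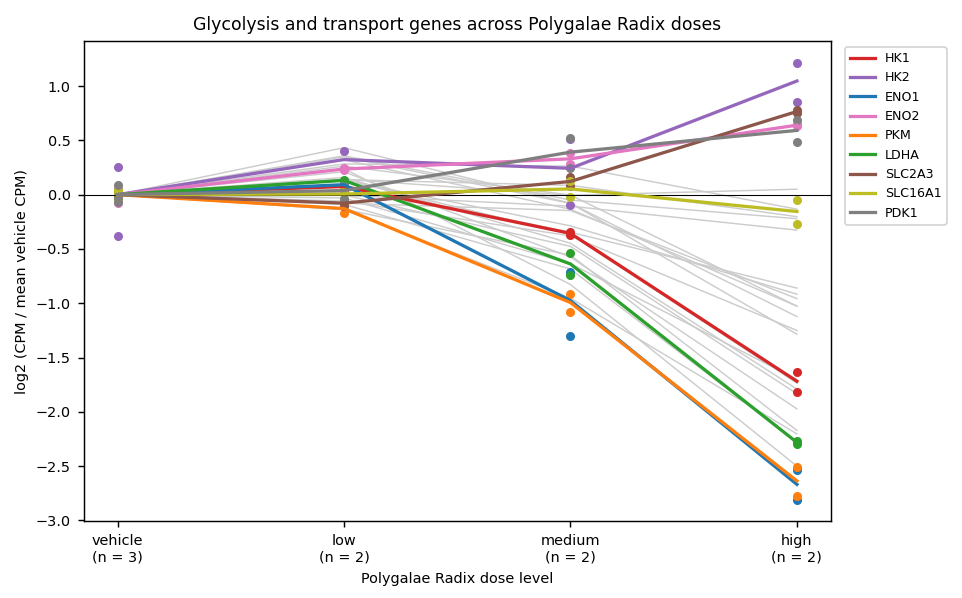
Log2 of CPM relative to the mean of vehicle for the 31 genes at each Polygalae Radix dose level, with 9 genes coloured (line: mean, points: libraries) and the others in grey. ENO1 and PKM lie below vehicle at the medium dose and further below it at the high dose, while HK2, SLC2A3, ENO2 and PDK1 lie above 0 at the high dose.

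In the other extracts the lower doses gave few calls. Menthae Herba had 4 at the medium dose (5.54% of all genes) and 6 at the low dose (13.1%), with HK2 higher and SLC2A3 lower at both. Saposhnikoviae Radix had 4 at the medium dose (7.94%), PFKFB3, ENO2, MPC2 and PDHB, all higher (4.54%). Aucklandiae Radix had 1 at the medium dose (5.59%), SLC2A3, and 1 at the low dose (7.24%), ENO2, and Soyo-san had 3 at the low dose (10.7%), HK1, PFKL and ENO3, all higher (5.43%). The edgeR test gave none at the medium dose of Saengmaek-san, Guibi-tang and Soyo-san (0.391%, 0.582% and 0.0652% of all genes), where 9, 6 and 4 members had an unadjusted p under 0.05 and DESeq2 called 1, 1 and 0. It also gave none at the low dose of Saposhnikoviae Radix, Saengmaek-san and Guibi-tang (4.1%, 0.522% and 0.261%), where 12, 6 and 6 members had an unadjusted p under 0.05 and DESeq2 called 2, 0 and 0. High against low dose gave 7 calls in Menthae Herba (15.5% of all genes), 5 in Aucklandiae Radix (18.4%), 3 in Guibi-tang (2.94%) and 2 in Soyo-san (1.24%). In Menthae Herba these were HK2, PFKL and PDK1, higher, and HK1, SLC2A1, SLC2A3 and MPC2, lower. The PFKL call there was lost without high dose replicate 2 (adjusted p = 0.0606) and without the filter on low counts (0.0645), and the MPC2 call without low dose replicate 3 (-0.27, adjusted p = 0.0855). In Aucklandiae Radix ALDOC was higher, and GPI, PFKL, SLC2A3 and PDHB were lower. The calls of GPI and PFKL were lost without any 1 of the 4 libraries (adjusted p = 0.0804 to 0.305) and without the filter (0.265 and 0.275), that of PFKL also with the replicate block (0.0515). The PDHB call was lost without high dose replicate 3 (adjusted p = 0.0932) or low dose replicate 2 (0.0741). In Guibi-tang SLC2A3, PKM and LDHA were lower. The PKM call was lost without high dose replicate 1 or 2 or low dose replicate 3 (adjusted p = 0.137 to 0.19) and in a fit of the 2 groups alone (0.195). The LDHA call was lost in that fit (0.0976) and without the filter (0.11). Within class 2, with a single Guibi-tang library per dose, the differences were -0.289 for PKM and -0.253 for LDHA. In Soyo-san SLC2A3 was lower and ENO2 higher, and both calls were lost without any 1 of the 4 libraries (adjusted p = 0.0628 to 0.432). Saposhnikoviae Radix and Saengmaek-san gave none by edgeR or DESeq2 (0.0707% of all genes in each), with 2 and 4 members at an unadjusted p under 0.05.

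Where 2 extracts share a library set, the difference between their high against low dose effects was tested directly, which needs no vehicle library. Polygalae Radix and Aucklandiae Radix differed in 28 of 31 members (45.9% of all genes), 25 lower (25.3%) and 3 higher (20.5%) in Polygalae Radix, with a median of -1.53 beside 0.01 over all genes. ENO1 (-2.78 ± 0.17, adjusted p = 2.36e-17), PGK1 (-2.62 ± 0.22), PKM (-2.59 ± 0.15) and LDHA (-2.46 ± 0.09) were lowest, and SLC2A3 (1.22 ± 0.12, adjusted p = 3.08e-11), ENO2 (0.54 ± 0.11) and PDK1 (0.42 ± 0.17) were the 3 that were higher. Menthae Herba and Saposhnikoviae Radix differed in 4 members (6.43% of all genes): HK2 was higher in Menthae Herba (1.61 ± 0.27, adjusted p = 3.64e-05), and SLC2A1 (-0.51 ± 0.09, adjusted p = 6.43e-05), SLC2A3 (-0.32 ± 0.10, adjusted p = 0.0474) and HK1 (-0.28 ± 0.08, adjusted p = 0.0289) were lower. Guibi-tang and Saengmaek-san differed in SLC2A3 alone (0.451% of all genes), which was lower in Guibi-tang (-0.53 ± 0.10, adjusted p = 0.00399). The doses of the first pair differ slightly, at 380 against 370 and 15.2 against 14.8 µg/mL, and those of the other pairs are equal.

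Okbyeongpung-san, with 1 library per dose, allowed no test. At its high dose 21 of the 31 genes lay above the vehicle range and 8 below it (38.3% and 34.1% of all tested genes did), and the median log2 ratio to the vehicle mean was 0.08, beside 0.02. Ratios past 0.5 either way were found for 3 members (14.8% of all genes): SLC2A3 at 27.0 CPM (-0.68), HK2 at 1.71 CPM (0.62) and ALDOC at 2.23 CPM (0.58). At the medium dose 1 member passed that mark (17.2% of all genes), HK2 at 0.734 CPM (-0.52), and at the low dose ALDOC did (0.53, with 15% of all genes).

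Beyond the 31 genes, a list of 39 further enzymes and transporters of the same steps had 28 tested genes. At the Polygalae Radix high dose 19 of the 28 passed (67.9% against 59.6% of all genes), 17 lower (29.5% of all genes) and 2 higher (30.1%), with a median of -0.86 beside 0.05 over all genes. PCK2, the mitochondrial enzyme that turns oxaloacetate into phosphoenolpyruvate, went from 30.6, 30.1 and 29.9 to 5.39 and 5.76 CPM (-2.42 ± 0.12, adjusted p = 4.66e-21). PC, which carboxylates pyruvate, fell (-1.98 ± 0.13, adjusted p = 2.07e-17), as did PGM1, which links glycogen to glycolysis (-1.88 ± 0.09, adjusted p = 9.34e-21). LDHD, a mitochondrial dehydrogenase of D-lactate, and SLC2A14, a close copy of SLC2A3, fell to 2 and 1 counts over both treated libraries, from 66 and 20 in vehicle. Their vehicle to treated ratios were 20.8 (95% exact interval 5.53 to 175) and 12.6 (2.01 to 522), with counting error only. PCK2 moved the other way in Menthae Herba, to 94.6, 90.5 and 86.5 CPM (1.58 ± 0.09, adjusted p = 5.5e-18). In Aucklandiae Radix LDHD rose from 0.633, 1.10 and 0.715 to 2.77 and 2.53 CPM (1.69 ± 0.27, adjusted p = 2.82e-06), among 8 calls of the list (28.6% against 35.7% of all genes), 4 in each direction. The list gave 12 calls in Soyo-san, 5 higher and 7 lower (42.9% against 28.6% of all genes). It gave 7 in Menthae Herba, 3 higher and 4 lower (25% against 29.6%), 2 in Guibi-tang (7.14% against 9.56%) and 1 in Saengmaek-san (3.57% against 3.79%), shares below those of all genes.

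Among 12 regulators of these genes, 9 passed at the Polygalae Radix high dose (75% against 59.6% of all genes), 6 higher (30.1% of all genes) and 3 lower (29.5%). Menthae Herba gave 7 (58.3% against 29.6%), 2 higher (14.6% of all genes) and 5 lower (15%). Guibi-tang gave 3 (25% against 9.56%), all lower (5.05%). Aucklandiae Radix and Soyo-san gave 4 each (33.3% against 35.7% and 28.6%), and Saposhnikoviae Radix and Saengmaek-san 0 (1.04% and 3.79% of all genes). TXNIP restrains glucose uptake and is induced by glucose through MondoA. It had 1 count over the 3 vehicle libraries and 49 over the 2 Polygalae Radix high dose libraries, at 0.798 and 1.09 CPM. The ratio was 77.8 (95% exact interval 13.3 to 3140, counting error only), and the level remained near 1 CPM. TXNIP also passed in Menthae Herba, with 12 counts (adjusted p = 0.00628), and in Soyo-san, with 6 counts (adjusted p = 0.0268). The Menthae Herba call was lost without high dose replicate 2 (adjusted p = 0.0982), and the Soyo-san call without either high dose library (0.227 and 0.0502) or vehicle replicate 1 or 3 (0.086 and 0.0893). Its relative ARRDC4 rose in Polygalae Radix (1.87 ± 0.28, adjusted p = 1.75e-07). HIF1A, the oxygen-regulated subunit of the hypoxia factor, measured 496, 472 and 494 CPM in vehicle and fell at the high dose of 5 extracts: to 273 and 278 CPM in Aucklandiae Radix (-0.83 ± 0.11), 306 and 304 in Soyo-san (-0.67 ± 0.11), 344, 364 and 330 in Menthae Herba (-0.50 ± 0.10), 332, 352 and 354 in Guibi-tang (-0.50 ± 0.10) and 406 and 308 in Polygalae Radix (-0.43 ± 0.11). The adjusted p ran from 1.99e-07 in Aucklandiae Radix to 0.000932 in Polygalae Radix, and the same vehicle libraries serve all 5. The 2 Polygalae Radix libraries are of different class. Without replicate 3 the HIF1A difference there was -0.26, without replicate 2 it was -0.66, and within class 2 it was -0.27. Each of these values rests on a single treated library. HIF1A was higher in class 2 in 7 of 9 groups that hold both classes, by 0.15 on average on the log2 scale. Within class 2, with a single Guibi-tang high dose library, the Guibi-tang difference was nearly the same (-0.49). EPAS1, its paralogue, passed lower in Menthae Herba (-0.57 ± 0.08), Polygalae Radix (-0.36 ± 0.09) and Soyo-san (-0.24 ± 0.09). It measured 258, 269 and 261 CPM in vehicle and 232 and 173 CPM in Polygalae Radix. The Polygalae Radix difference was -0.17 without replicate 3, -0.60 without replicate 2 and -0.19 within class 2, each from a single treated library. The Soyo-san call was lost without any 1 of its 2 libraries or the 3 vehicle libraries (adjusted p = 0.0617 to 0.223).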

How the data were processed

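RNA was sequenced in 60 libraries of A549 cells, 24 h after treatment. Per the labels' protocols, libraries were made with a strand-marking kit and read as 100 bp pairs on an MGI instrument. Per the submitters' processing notes, FastQC 0.11.9, Trim Galore 0.6.5, STAR 2.7.3a, RSEM 1.3.3 and the build GRCh38 (hg38) were used, and no source used here gives the strand setting of the counting. The authors deposited expected counts per Ensembl gene (60675 genes), of which 9.95% carry decimals. These were rounded here, scaled by TMM and tested with edgeR 4.0.16 (R 4.3.3) by the quasi-likelihood F-test, in 1 fit of 57 libraries in 22 groups with 35 residual degrees of freedom. The filter on low counts kept 18396 genes, and p-values were adjusted by Benjamini-Hochberg over all of them in each comparison, with a threshold of 0.05. Errors of fold changes are the log2 fold change divided by the root of F. Okbyeongpung-san, with 1 library per dose, entered no fit, and its log2 ratios use a prior count of 2. Symbols were found for 56558 identifiers in the gene name table, and upstream sequences come from RefSeq. Counts were simulated for the Polygalae Radix high dose comparison, with 17719 genes tested. The test recovered 17.9%, 71.6% and 84.8% of genes changed 1.5-, 2- and 3-fold. For the Menthae Herba high dose the shares were 29.9%, 68.7% and 80.3%, among 17749 genes. Only 67, 67 and 66 genes were changed in each simulation, whereas 59.6% of genes passed in the real Polygalae Radix comparison. Simulated counts need not spread like the real libraries, so these shares do not give the power for the members.

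The members and lists were chosen with earlier results of these data known. For each high dose, the 4 highest and 4 lowest members past the threshold were named, and every library was given where a step has several isoforms; other members' values were added after they were seen. Of the other lists, genes past the threshold with a log2 fold change of at least 1 were named, at most 6 per extract; ARRDC4, EPAS1 and HIF1A fell outside that rule and were named after their values were seen. Replicate numbers were not taken to pair libraries: in no comparison with 3 pairs was every correlation above 0.1. Alternatives were DESeq2 size factors, the DESeq2 1.42.0 Wald test, no filter, the 2 groups alone, a replicate block, library class as a covariate, an adjusted p under 0.01 and leaving out each library. Fits within a library class were added after seeing the data.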

Additional observations from a re-analysis of the deposited data

Results flagged for a closer look

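In 3 pairs of extracts that share a library set, the high against low dose difference of some members itself differed between the extracts by the edgeR interaction test. Between Polygalae Radix and Aucklandiae Radix it did so for 28 members, between Menthae Herba and Saposhnikoviae Radix for 4 members (HK1, HK2, SLC2A1 and SLC2A3), and between Guibi-tang and Saengmaek-san for 1 member, SLC2A3.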

How the results depend on the processing

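Among 37 named differences at the high doses, the 6 planned refits with all libraries gave 222 values, of which 212 stayed past the threshold, 10 did not and 0 reversed. Leaving out 1 library gave 200 values, of which 180 stayed past it and 20 did not. Another scaling moved the median of all genes by under 0.1 on the log2 scale. The counts of members called moved more, and their causes were not tested. With library class as a covariate the high dose counts went from 1 to 3 in Saposhnikoviae Radix and from 2 to 9 in Saengmaek-san, the high against low dose counts from 7 to 11 in Menthae Herba, 3 to 6 in Guibi-tang and 2 to 5 in Soyo-san, and the totals from 27 to 42 at the medium and 12 to 36 at the low dose. With the 2 groups alone the high dose counts were 18 in Aucklandiae Radix, 18 in Menthae Herba, 0 in Saengmaek-san and 17 in Soyo-san, and high against low dose 9 in Aucklandiae Radix, 1 in Guibi-tang and 0 in Soyo-san. Without the filter Guibi-tang had 3 at the high dose, and high against low dose Aucklandiae Radix had 3 and Soyo-san 0. Within class 2, high against low dose gave 0 in Soyo-san. That class holds a single high dose library of Saposhnikoviae Radix and a single library per dose of Guibi-tang, so no counts are given for them. Within class 1, high against low dose gave 9 in Aucklandiae Radix, 12 in Menthae Herba and 11 in Guibi-tang. At an adjusted p under 0.01 Soyo-san had 6 at the high and 0 at the high against low dose, Aucklandiae Radix 3 at the high against low dose, and the low dose total was 2. The DESeq2 Wald test gave a low dose total of 22. Without 1 library the high dose counts were 26 to 28 in Polygalae Radix, 7 to 11 in Aucklandiae Radix (7 without high dose replicate 2), 7 to 8 in Menthae Herba, 0 to 1 in Saposhnikoviae Radix (0 without high dose replicate 1), 1 to 3 in Saengmaek-san (1 without high dose replicate 3), 3 to 6 in Guibi-tang (3 without high dose replicate 2) and 4 to 9 in Soyo-san (6 without high dose replicate 1 and 4 without replicate 2). High against low dose they were 26 to 29, 1 to 3, 6 to 8, 0 to 0, 0 to 0, 2 to 3 and 0 to 0 in the same order, and the totals were 20 to 20 at the medium and 3 to 5 at the low dose without 1 vehicle library. A replicate block left the high dose counts at 26, 11, 8, 1, 2, 6 and 12 in that order and ended none of the 37 named calls, though PFKFB3 in Polygalae Radix went to -0.18 (adjusted p = 0.0574).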
